A study of Mus musculus with 45 samples.

Results

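Itgax, Clec7a, Axl, Cd68, Cd63, Cd9, Cd52, Csf1, Igf1 and Lgals3bp are surface, lysosomal-membrane and secreted proteins that plaque-associated microglia are known to make. They were chosen by symbol, with earlier results of these data known, and matched to their Ensembl gene IDs. All 10 of them are among the 15897 genes measured in the hippocampus of 45 mice. All mice were female and C57Bl/6J, were sacrificed at 13 months of age, and had eaten either a standard diet (STD, 5% fat and 0% cholesterol) or a typical Western diet (TWD, 21% fat and 0.15% cholesterol) from the age of 7 months. AwTw are wild-type littermates, A+Tw mice carry APPswe and PS1dE9 in 1 transgene under the mouse PrP promoter, AwT+ mice carry human Tau P301L under the CaMKII promoter, and A+T+ mice, from a cross of heterozygous parents of these lines, carry both. On STD there were 6 AwTw, 6 AwT+, 5 A+Tw and 4 A+T+ mice, each a separate animal, and 6 of every genotype ate TWD. The design asks whether these genes differ with β-amyloid or Tau genotype, and whether the diet changes them or their difference between genotypes.

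Microglia are the resident macrophages of the brain. Around β-amyloid plaques they lose part of their homeostatic programme and take on a disease-associated one, which includes receptors for debris and sugars, lysosomal membrane proteins and growth factors. Some of these genes are used by other cells too: Cd9 by oligodendrocytes, Cd63, Axl and Lgals3bp by several non-neuronal cell types, Csf1 by astrocytes and neurons, and Igf1 by interneurons. In RNA of whole hippocampus, more cells of a type and more RNA per cell cannot be told apart.

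The values are on a log2-like scale, so a difference of 1 is close to a fold of 2 for a well-expressed gene, and understates the fold of a gene with few reads. Depth per mouse is not known from them, and the errors given here are those of the spread between mice. As a check of the tissue, the mean level of 8 neuronal markers ran from 12.32 to 13.15 over the mice. The choroid plexus, a secretory epithelium next to the hippocampus, differed widely between mice in its markers. Split at the widest gap in the mean level of its 8 markers, 17 mice lay between 5.93 and 7.70 and 28 between 8.38 and 10.58. The higher set held 17 of the 21 A+ and 11 of the 24 Aw mice. On STD these were 4 of 4 A+T+, 4 of 5 A+Tw, 4 of 6 AwT+ and 2 of 6 AwTw mice. On TWD they were 5, 4, 3 and 2 of 6, in the same order. None of the 8 markers passed the test between A+ and Aw mice, with a median log2 fold change of 0.76. In A+T+ against AwTw mice on STD the median was 1.79, and again none passed. Genotype and choroid plexus level thus cannot be fully told apart there. Of markers of blood-derived cells, 0 of 8 for monocytes and neutrophils and 2 of 7 for T cells were in the table, and neither Lck nor Trac of the latter passed the test in A+ against Aw mice.

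Compared with the 24 Aw mice (AwTw and AwT+), the 21 A+ mice (A+Tw and A+T+) had higher levels of 9 of the 10 genes, and Axl alone did not pass the test. In each result below, a gene passed when its limma p, adjusted over all 15897 genes, was under the threshold of 0.05. Of all genes, 3.11% passed as higher in this comparison. Shares of all genes are given for scale only, as the 10 were chosen with earlier results of these data known. The log2 fold change was largest for Itgax (2.32), Clec7a (1.90) and Cd68 (1.74), and smallest for Axl (0.26). The median over the 10 genes was 0.97, against -0.02 over all genes. In Itgax and Cd68, every A+ mouse lay above every Aw mouse, as in 0.17% of all genes. In Clec7a, Cd52 and Igf1, 20 of the 21 A+ mice lay above the highest Aw mouse, and in Cd9, 19 did. In Csf1 and Lgals3bp 4 A+ mice did so, in Axl 2 and in Cd63 only 1.

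**Figure D1:**
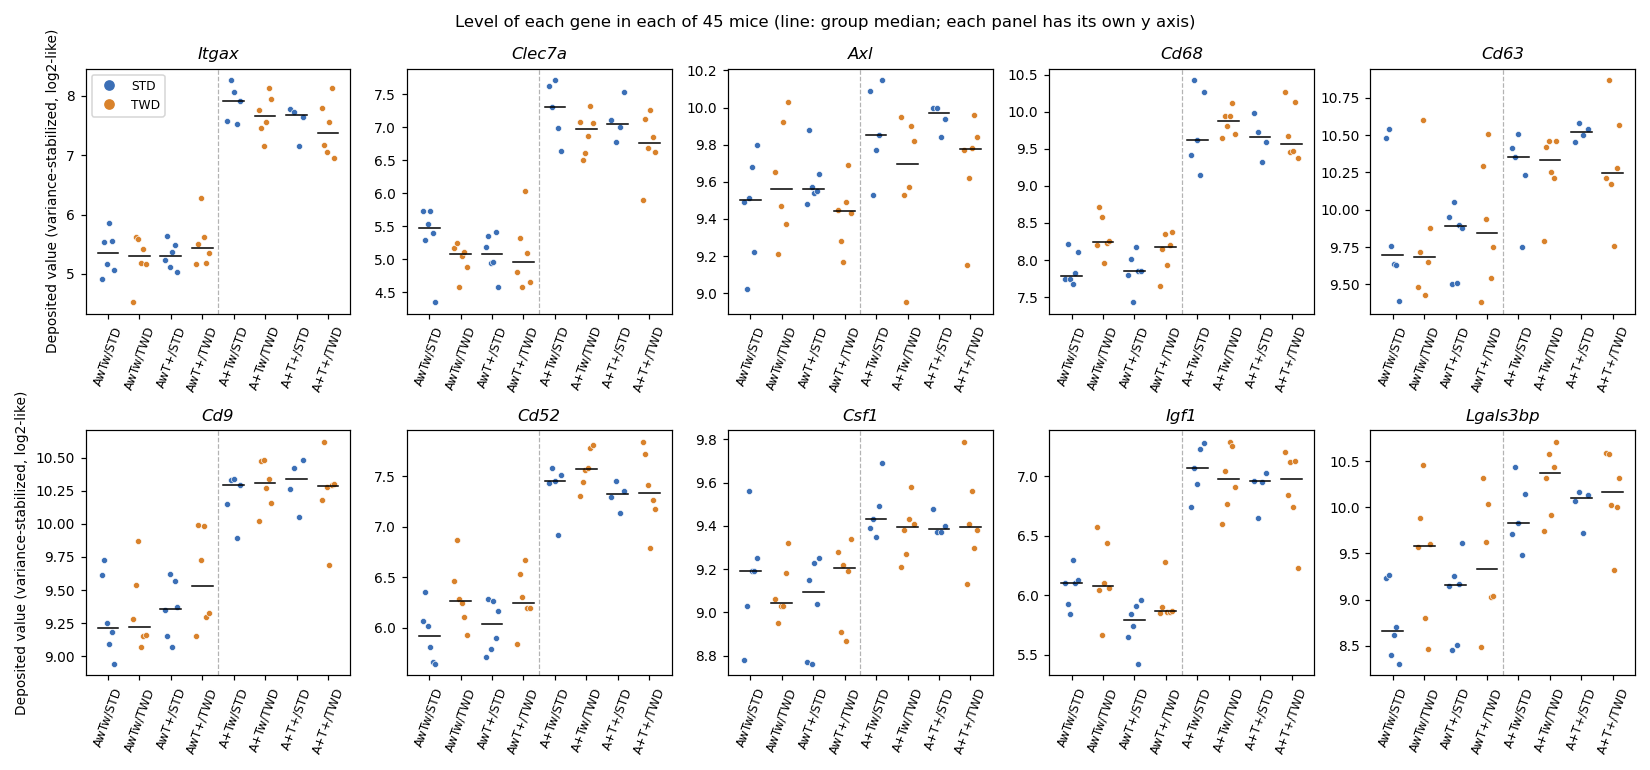
Deposited log2-like value (y axis, each panel with its own range) of the 10 genes in each mouse, by genotype and diet (x axis); points are mice, blue on STD and orange on TWD, black lines are group medians, and the dashed line parts Aw from A+ groups. The A+ mice lie between 6.95 and 8.27 in Itgax, above the Aw mice at 4.52 to 6.28, while in Axl the A+ mice at 8.95 to 10.15 overlap the Aw mice at 9.02 to 10.03.

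The 250 bases before the transcription start are shown for Itgax, Clec7a and Cd68, the genes with the largest differences between A+ and Aw mice (RefSeq, GRCm38.p6, 5′ to 3′ on the gene's strand). Capitals mark matches on either strand to GGAAGT, the core of sites for PU.1, the master regulator of myeloid genes, or to TGANTCA, the letters searched here for AP-1.
Itgax, chr7:128129300-128129549, plus strand: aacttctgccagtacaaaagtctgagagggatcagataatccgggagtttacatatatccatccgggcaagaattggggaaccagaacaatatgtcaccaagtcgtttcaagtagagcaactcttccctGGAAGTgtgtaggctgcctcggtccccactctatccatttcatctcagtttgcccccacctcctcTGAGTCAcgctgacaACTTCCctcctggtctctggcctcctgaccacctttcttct
Clec7a, chr6:129472780-129473029, minus strand: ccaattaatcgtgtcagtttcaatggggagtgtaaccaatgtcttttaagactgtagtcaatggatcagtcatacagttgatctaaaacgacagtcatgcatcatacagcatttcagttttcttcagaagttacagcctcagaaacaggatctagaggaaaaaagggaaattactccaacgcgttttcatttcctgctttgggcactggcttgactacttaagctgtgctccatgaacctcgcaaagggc
Cd68, chr11:69666171-69666420, minus strand: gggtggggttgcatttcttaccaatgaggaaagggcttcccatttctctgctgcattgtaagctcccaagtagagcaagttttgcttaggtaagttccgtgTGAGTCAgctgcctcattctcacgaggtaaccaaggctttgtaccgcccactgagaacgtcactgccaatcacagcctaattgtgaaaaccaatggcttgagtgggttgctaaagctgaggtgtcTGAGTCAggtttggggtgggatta
The Itgax window held GGAAGT starting at -121 and, on the opposite strand, at -41 from the start, with TGANTCA at -56 between them. The Cd68 window held TGANTCA at -149 and -24. Neither motif was in the Clec7a window shown. Over the 9 genes that matched the RefSeq promoter table, GGAAGT was in the windows of 2 (Itgax and Cd63, at -230) and in 19.7% of all 32851 windows. TGANTCA was in those of 3 (Itgax and Cd68, as TGAGTCA, and Igf1, as TGAATCA at -37) and in 6.75% of all windows. GAAANNGAA, the letters of an interferon response element, was in that of Cd9 (at -127) and in 7.13% of all windows. CACGTG, the E-box of lysosomal genes, was in none of the 9 and in 6.02% of all windows. Cd52 was not matched.

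Of the receptors, Itgax encodes CD11c, the alpha chain of complement receptor 4, which pairs with the beta-2 integrin chain of Itgb2 (ENSMUSG00000030789, chr7:128129547-128150657, plus strand; GENCODE M21, GRCm38, as for all positions of genes here). Itgax ran from 4.92 to 5.86 (median 5.35) in AwTw/STD and from 4.52 to 5.62 (median 5.30) in AwTw/TWD mice. In mice with Tau P301L alone, Itgax ran from 5.03 to 5.63 (median 5.30) in AwT+/STD and from 5.17 to 6.28 (median 5.44) in AwT+/TWD mice. No Aw group stood apart from another. The Itgax values of the A+ mice on STD were 7.58, 8.27, 8.07, 7.53 and 7.91 in A+Tw/STD and 7.78, 7.72, 7.16 and 7.64 in A+T+/STD mice. On TWD, Itgax ran from 7.16 to 8.13 (median 7.66) in A+Tw/TWD and from 6.95 to 8.13 (median 7.37) in A+T+/TWD mice. Every A+ group lay above every Aw group, and the 4 A+ groups overlapped each other. Against AwTw mice fed alike, the log2 fold change (± SE) of Itgax in A+Tw mice was 2.48 ± 0.20 for STD (adjusted p = 5.76e-12) and 2.53 ± 0.19 for TWD (adjusted p = 1.86e-12). For Itgax in A+T+ mice it was 2.28 ± 0.21 with STD (adjusted p = 5.7e-10) and 2.30 ± 0.19 with TWD (adjusted p = 2.47e-11). Itgax differed by 2.32 ± 0.10 between all A+ and all Aw mice (adjusted p = 1.33e-21), by 2.22 within batch 0 and by 2.40 within batch 1. Its partner Itgb2 rose too in A+ mice (0.96 ± 0.08, adjusted p = 1.48e-11), as did Itgam (0.53 ± 0.09, adjusted p = 2.12e-05), the alpha chain of complement receptor 3.

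Clec7a encodes dectin-1, a receptor for fungal and other glucans that signals through Syk (ENSMUSG00000079293, chr6:129461591-129472779, minus strand, annotated as a polymorphic pseudogene). Clec7a ran from 4.35 to 5.74 (median 5.47) in AwTw/STD and from 4.59 to 5.25 (median 5.09) in AwTw/TWD mice. Mice with Tau P301L alone had Clec7a values from 4.58 to 5.41 (median 5.08) in AwT+/STD and from 4.59 to 6.03 (median 4.95) in AwT+/TWD mice. The low end of AwTw/STD was a lone mouse, with the next at 5.30. The Clec7a values of the A+ mice on STD were 7.62, 7.30, 7.72, 6.99 and 6.64 in A+Tw/STD and 7.11, 6.77, 7.00 and 7.53 in A+T+/STD mice. On TWD, Clec7a ran from 6.50 to 7.32 (median 6.97) in A+Tw/TWD and from 5.90 to 7.26 (median 6.77) in A+T+/TWD mice. Only 1 A+ mouse, at 5.90 in A+T+/TWD, lay below the highest Aw mouse, an AwT+/TWD mouse at 6.03. In A+Tw mice, the log2 fold change of Clec7a (± SE, against AwTw mice of the same diet) was 1.88 ± 0.24 for STD (adjusted p = 6.73e-07) and 1.97 ± 0.23 for TWD (adjusted p = 9.89e-08). In A+T+ mice, that of Clec7a was 1.80 ± 0.25 with STD (adjusted p = 9.07e-06) and 1.80 ± 0.23 with TWD (adjusted p = 1.14e-06). Clec7a differed by 1.90 ± 0.12 between all A+ and all Aw mice (adjusted p = 4.02e-16), by 2.07 within batch 0 and by 1.70 within batch 1. After removal of group and batch, Clec7a went down with a score over all genes (r = -0.65 over 45 mice). The score weighs each mouse's values by the first principal component of the residuals, and so keeps differences between groups. With that score as a covariate, the difference was 2.03. Of the kinases and adaptors downstream, Syk (0.25 ± 0.07, adjusted p = 0.0194) and Plcg2 (0.36 ± 0.06, adjusted p = 1.89e-05) rose in A+ mice, and Card9 was at 0.24 ± 0.08, adjusted p = 0.0926.

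Axl encodes a receptor tyrosine kinase of the TAM family, which binds Gas6 and takes part in the uptake of dead cells (ENSMUSG00000002602, chr7:25757273-25788705, minus strand). Axl ran from 9.02 to 9.80 (median 9.50) in AwTw/STD and from 9.21 to 10.03 (median 9.56) in AwTw/TWD mice. With Tau P301L alone, Axl ran from 9.48 to 9.88 (median 9.56) in AwT+/STD and from 9.17 to 9.69 (median 9.44) in AwT+/TWD mice. The Aw groups overlapped. The Axl values of the A+ mice on STD were 10.09, 9.53, 9.77, 9.85 and 10.15 in A+Tw/STD and 10.00, 10.00, 9.84 and 9.94 in A+T+/STD mice. On TWD, Axl ran from 8.95 to 9.95 (median 9.70) in A+Tw/TWD and from 9.15 to 9.96 (median 9.78) in A+T+/TWD mice. The A+T+/STD mice lay above the AwTw/STD mice, and the other A+ groups overlapped the AwTw group of their diet. Axl in A+Tw mice had a log2 fold change (± SE) against AwTw mice of the same diet of 0.43 ± 0.16 for STD (adjusted p = 0.508) and 0.02 ± 0.15 for TWD (adjusted p = 1). The same value of Axl in A+T+ mice was 0.49 ± 0.17 with STD (adjusted p = 0.173) and 0.08 ± 0.15 with TWD (adjusted p = 0.938). Axl differed by 0.26 ± 0.08 between all A+ and all Aw mice (adjusted p = 0.0536), by 0.14 within batch 0 and by 0.37 within batch 1. Over all mice, the 95% confidence interval was 0.10 to 0.42, and the adjusted p was under the threshold in 5 of 9 alternatives and when any of 9 mice was left out (0.0105 to 0.0476): A+Tw/STD replicate 2, A+Tw/TWD replicate 3, A+T+/TWD replicate 2, AwT+/STD replicate 2, AwT+/TWD replicate 5, and replicates 4 and 6 of both AwTw groups. Axl's ligand Gas6 was at 0.16 ± 0.10, adjusted p = 0.443, whereas Pros1, the other ligand of the family, rose (0.36 ± 0.08, adjusted p = 0.00624). The other TAM receptors did not pass the test, Mertk at 0.03 ± 0.08, adjusted p = 0.88 and Tyro3 at -0.10 ± 0.06, adjusted p = 0.452.

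Among the lysosomal and membrane proteins, Cd68 encodes a heavily glycosylated protein of late endosomes and lysosomes of macrophages (ENSMUSG00000018774, chr11:69664213-69666153, minus strand). Cd68 ran from 7.68 to 8.22 (median 7.79) in AwTw/STD and from 7.96 to 8.71 (median 8.25) in AwTw/TWD mice. In mice with Tau P301L alone, Cd68 ran from 7.43 to 8.18 (median 7.85) in AwT+/STD and from 7.65 to 8.38 (median 8.18) in AwT+/TWD mice. On either diet the AwTw and AwT+ mice overlapped. The Cd68 values of the A+ mice on STD were 9.41, 10.43, 9.62, 9.15 and 10.27 in A+Tw/STD and 9.98, 9.72, 9.32 and 9.59 in A+T+/STD mice. On TWD, Cd68 ran from 9.65 to 10.11 (median 9.87) in A+Tw/TWD and from 9.37 to 10.27 (median 9.57) in A+T+/TWD mice. The lowest A+ mouse, at 9.15, was above the highest Aw mouse, at 8.71. Against AwTw mice fed alike, the log2 fold change (± SE) of Cd68 in A+Tw mice was 1.85 ± 0.17 for STD (adjusted p = 2.72e-10) and 1.62 ± 0.16 for TWD (adjusted p = 4.42e-09). For Cd68 in A+T+ mice it was 1.81 ± 0.18 with STD (adjusted p = 4.05e-09) and 1.49 ± 0.16 with TWD (adjusted p = 3.98e-08). Cd68 differed by 1.74 ± 0.08 between all A+ and all Aw mice (adjusted p = 1.31e-19), by 1.49 within batch 0 and by 1.90 within batch 1. After removal of group and batch, Cd68 rose with the same score of the first principal component (r = 0.60 over 45 mice). With that score as a covariate the difference was 1.66. Of the other lysosomal membrane proteins, Lamp1 rose in A+ mice (0.16 ± 0.04, adjusted p = 0.0236), while Lamp2 was at 0.18 ± 0.13, adjusted p = 0.511.

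Cd52 encodes a short GPI-anchored glycoprotein of immune cells (ENSMUSG00000000682, chr4:134082448-134095082, minus strand); its exons overlap those of Crybg2 on the opposite strand, and whether strand was used in the quantification is not given in the sources used here. Cd52 ran from 5.64 to 6.35 (median 5.92) in AwTw/STD and from 5.93 to 6.87 (median 6.27) in AwTw/TWD mice. Mice with Tau P301L alone had Cd52 values from 5.71 to 6.29 (median 6.03) in AwT+/STD and from 5.84 to 6.67 (median 6.25) in AwT+/TWD mice. The Aw groups overlapped. The Cd52 values of the A+ mice on STD were 7.43, 7.58, 7.45, 6.92 and 7.51 in A+Tw/STD and 7.29, 7.45, 7.13 and 7.35 in A+T+/STD mice. On TWD, Cd52 ran from 7.30 to 7.81 (median 7.57) in A+Tw/TWD and from 6.79 to 7.84 (median 7.34) in A+T+/TWD mice. The 11 A+Tw mice lay above all Aw mice, and of the A+T+ mice only 1 on TWD, at 6.79, was below the highest Aw mouse, at 6.87. In A+Tw mice, the log2 fold change of Cd52 (± SE, against AwTw mice of the same diet) was 1.42 ± 0.16 for STD (adjusted p = 3.8e-08) and 1.33 ± 0.15 for TWD (adjusted p = 8.62e-08). In A+T+ mice, that of Cd52 was 1.41 ± 0.17 with STD (adjusted p = 2.41e-07) and 1.12 ± 0.15 with TWD (adjusted p = 4.3e-06). Cd52 differed by 1.30 ± 0.08 between all A+ and all Aw mice (adjusted p = 2.4e-16), by 1.26 within batch 0 and by 1.27 within batch 1. Crybg2 was at 0.02 ± 0.13 (adjusted p = 0.948) between the same mice.

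Cd9 and Cd63 are tetraspanins, which organise other proteins in membranes, Cd9 at the cell surface and Cd63 in late endosomes, lysosomes and exosomes. Cd9 lies at chr6:125460266-125494791, minus strand (ENSMUSG00000030342), with exons that overlap the unmeasured Gm26728 on the opposite strand. Cd9 ran from 8.94 to 9.73 (median 9.21) in AwTw/STD and from 9.07 to 9.87 (median 9.22) in AwTw/TWD mice. With Tau P301L alone, Cd9 ran from 9.07 to 9.62 (median 9.36) in AwT+/STD and from 9.15 to 9.99 (median 9.53) in AwT+/TWD mice. In all Aw groups but AwT+/STD, the highest mice reached into the range of the A+ mice. The Cd9 values of the A+ mice on STD were 10.15, 10.33, 10.34, 9.89 and 10.29 in A+Tw/STD and 10.26, 10.42, 10.05 and 10.48 in A+T+/STD mice. On TWD, Cd9 ran from 10.02 to 10.48 (median 10.31) in A+Tw/TWD and from 9.69 to 10.62 (median 10.29) in A+T+/TWD mice. All A+ groups but A+T+/TWD lay above the AwTw group of their diet. Cd9 in A+Tw mice had a log2 fold change (± SE) against AwTw mice of the same diet of 0.88 ± 0.16 for STD (adjusted p = 0.000398) and 0.99 ± 0.15 for TWD (adjusted p = 2.98e-05). The same value of Cd9 in A+T+ mice was 1.03 ± 0.17 with STD (adjusted p = 0.000113) and 0.93 ± 0.15 with TWD (adjusted p = 0.000121). Cd9 differed by 0.88 ± 0.08 between all A+ and all Aw mice (adjusted p = 1.84e-11), by 0.86 within batch 0 and by 0.88 within batch 1. With the choroid plexus score as a covariate, an alternative chosen after seeing the data, the difference was 0.76 (adjusted p = 1.04e-13).

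Cd63 (ENSMUSG00000025351, chr10:128900989-128912822, plus strand) differed less. Cd63 ran from 9.39 to 10.54 (median 9.70) in AwTw/STD and from 9.43 to 10.60 (median 9.69) in AwTw/TWD mice. In mice with Tau P301L alone, Cd63 ran from 9.50 to 10.06 (median 9.89) in AwT+/STD and from 9.38 to 10.51 (median 9.84) in AwT+/TWD mice. In 3 of the 4 Aw groups, 1 or 2 mice were well above the rest. The Cd63 values of the A+ mice on STD were 10.41, 10.35, 10.51, 9.75 and 10.23 in A+Tw/STD and 10.45, 10.58, 10.50 and 10.54 in A+T+/STD mice. On TWD, Cd63 ran from 9.79 to 10.46 (median 10.33) in A+Tw/TWD and from 9.76 to 10.87 (median 10.25) in A+T+/TWD mice. A single A+ mouse, in A+T+/TWD, exceeded the highest Aw mouse. Against AwTw mice fed alike, the log2 fold change (± SE) of Cd63 in A+Tw mice was 0.33 ± 0.21 for STD (adjusted p = 0.785) and 0.50 ± 0.20 for TWD (adjusted p = 0.697). For Cd63 in A+T+ mice it was 0.62 ± 0.23 with STD (adjusted p = 0.205) and 0.54 ± 0.20 with TWD (adjusted p = 0.424). Cd63 differed by 0.50 ± 0.11 between all A+ and all Aw mice (adjusted p = 0.0018), by 0.43 within batch 0 and by 0.50 within batch 1. Cd63 thus passed the test over all mice but in none of the comparisons of group with group, nor within either batch (adjusted p = 0.467 and 0.0743). With the choroid plexus score as a covariate the difference fell to 0.32 (adjusted p = 0.00152). Of the other tetraspanins, Cd37 (0.88 ± 0.10, adjusted p = 3.23e-09) and Cd53 (0.47 ± 0.12, adjusted p = 0.00966), both of immune cells, rose in A+ mice, and Cd81 (0.17 ± 0.07, adjusted p = 0.226), Cd82 (0.33 ± 0.12, adjusted p = 0.146) and Cd151 (0.31 ± 0.09, adjusted p = 0.0545) did not pass the test.

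Of the secreted proteins, Csf1 is a ligand of Csf1r, the receptor on which microglia depend for survival (ENSMUSG00000014599, chr3:107741048-107760469, minus strand). Its lowest, median and highest value were 8.76, 9.17 and 9.56 in the 24 Aw mice, and 9.13, 9.40 and 9.80 in the 21 A+ mice. Thus 4 A+ mice lay above the highest Aw mouse, and 11 Aw mice below the lowest A+ mouse. In A+Tw mice, the log2 fold change of Csf1 (± SE, against AwTw mice of the same diet) was 0.30 ± 0.12 for STD (adjusted p = 0.622) and 0.30 ± 0.11 for TWD (adjusted p = 0.543). In A+T+ mice, that of Csf1 was 0.25 ± 0.12 with STD (adjusted p = 0.356) and 0.35 ± 0.11 with TWD (adjusted p = 0.241). Csf1 differed by 0.32 ± 0.06 between all A+ and all Aw mice (adjusted p = 0.000217), by 0.25 within batch 0 and by 0.38 within batch 1. Csf1 passed the test over all mice, but in none of the comparisons of group with group and not within batch 0 (adjusted p = 0.334). The receptor Csf1r rose more (0.63 ± 0.06, adjusted p = 2.16e-10), and the other ligand, Il34, was at -0.03 ± 0.08, adjusted p = 0.853.

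Igf1, insulin-like growth factor 1, acts on neurons and glia through Igf1r (ENSMUSG00000020053, chr10:87858265-87937042, plus strand). Igf1 ran from 5.84 to 6.30 (median 6.10) in AwTw/STD and from 5.67 to 6.57 (median 6.08) in AwTw/TWD mice. With Tau P301L alone, Igf1 ran from 5.42 to 5.96 (median 5.79) in AwT+/STD and from 5.85 to 6.28 (median 5.86) in AwT+/TWD mice. In AwT+/TWD, 5 mice lay between 5.85 and 5.90 and the other at 6.28. The Igf1 values of the A+ mice on STD were 6.74, 7.07, 6.93, 7.23 and 7.28 in A+Tw/STD and 6.96, 6.65, 6.95 and 7.03 in A+T+/STD mice. On TWD, Igf1 ran from 6.60 to 7.29 (median 6.98) in A+Tw/TWD and from 6.23 to 7.20 (median 6.98) in A+T+/TWD mice. Only 1 A+ mouse, at 6.23 in A+T+/TWD, lay below the highest Aw mouse, an AwTw/TWD mouse at 6.57. Igf1 in A+Tw mice had a log2 fold change (± SE) against AwTw mice of the same diet of 0.97 ± 0.15 for STD (adjusted p = 4.53e-05) and 0.87 ± 0.15 for TWD (adjusted p = 0.000166). The same value of Igf1 in A+T+ mice was 0.85 ± 0.16 with STD (adjusted p = 0.00103) and 0.77 ± 0.15 with TWD (adjusted p = 0.00126). Igf1 differed by 0.99 ± 0.08 between all A+ and all Aw mice (adjusted p = 1.72e-13), by 0.98 within batch 0 and by 1.09 within batch 1. The receptor Igf1r was at -0.08 ± 0.08, adjusted p = 0.627, and of the binding proteins that hold Igf1 in the tissue, 0 of 4 passed the test (Igfbp2 at 0.44 ± 0.30, adjusted p = 0.464, and Igfbp3, Igfbp4 and Igfbp5 between -0.12 and 0.08).

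Lgals3bp, a secreted glycoprotein that binds galectins (ENSMUSG00000033880, chr11:118392751-118402092, minus strand), had the largest standard error of the 10 genes between A+ and Aw mice. Lgals3bp ran from 8.30 to 9.27 (median 8.66) in AwTw/STD and from 8.47 to 10.46 (median 9.58) in AwTw/TWD mice. In mice with Tau P301L alone, Lgals3bp ran from 8.45 to 9.61 (median 9.16) in AwT+/STD and from 8.49 to 10.32 (median 9.33) in AwT+/TWD mice. The AwTw/TWD mice reached the highest level of any Aw group. The Lgals3bp values of the A+ mice on STD were 9.71, 10.43, 9.83, 9.48 and 10.14 in A+Tw/STD and 10.07, 10.16, 9.72 and 10.13 in A+T+/STD mice. On TWD, Lgals3bp ran from 9.74 to 10.71 (median 10.38) in A+Tw/TWD and from 9.32 to 10.59 (median 10.17) in A+T+/TWD mice. On STD the A+ mice lay above the AwTw mice, and on TWD they overlapped them. Against AwTw mice fed alike, the log2 fold change (± SE) of Lgals3bp in A+Tw mice was 1.14 ± 0.29 for STD (adjusted p = 0.0406) and 0.89 ± 0.28 for TWD (adjusted p = 0.243). For Lgals3bp in A+T+ mice it was 1.30 ± 0.31 with STD (adjusted p = 0.018) and 0.74 ± 0.28 with TWD (adjusted p = 0.435). Lgals3bp differed by 0.95 ± 0.15 between all A+ and all Aw mice (adjusted p = 9.37e-06), by 0.91 within batch 0 and by 1.00 within batch 1. The pass on STD was not firm: in A+Tw mice the adjusted p was between 0.0529 and 0.212 when any of 8 of the 11 mice was left out (replicates 2 to 5 of A+Tw/STD and 3 to 6 of AwTw/STD), the highest without A+Tw/STD replicate 2, and in A+T+ mice between 0.0552 and 0.108 without A+T+/STD replicate 1, 2 or 4. With the choroid plexus score as a covariate, the difference over all mice was 0.74 (adjusted p = 6.73e-06), and that of A+T+ mice on STD was 0.80 (adjusted p = 0.141). Of the galectins, Lgals3 (0.72 ± 0.11, adjusted p = 1.48e-05) and Lgals9 (0.45 ± 0.08, adjusted p = 8.42e-05) rose in A+ mice, and Lgals1 was at 0.31 ± 0.15, adjusted p = 0.297.

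**Figure D2:**
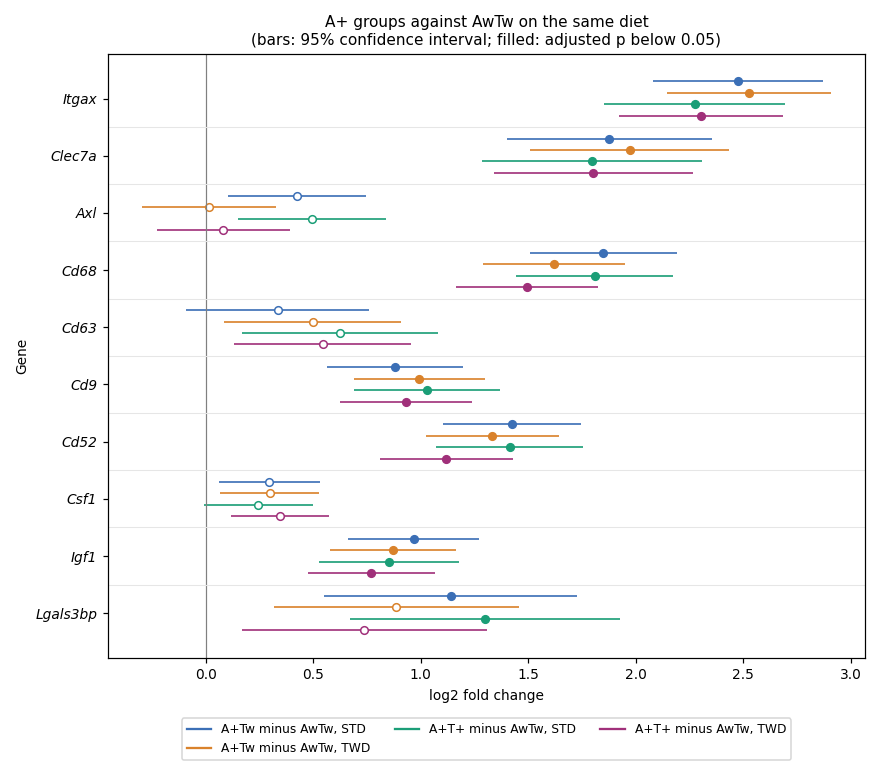
Log2 fold change (x axis) of each gene (y axis) in A+Tw or A+T+ against AwTw mice on the same diet, with 95% confidence intervals; filled points passed the test. Itgax lies between 2.28 and 2.53 and Csf1 between 0.25 and 0.35, and Axl is at 0.43 and 0.49 on STD and at 0.02 and 0.08 on TWD, a difference by diet that did not pass the test.

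Counted by comparison, 7 of the 10 genes rose in A+Tw/STD against AwTw/STD mice, where 0.918% of all genes were higher, and 6 in A+Tw/TWD against AwTw/TWD mice (0.818% of all genes). In A+T+ against AwTw mice, 7 rose on STD (1.22% of all genes) and 6 on TWD (0.692%). No gene of the 10 fell in these comparisons. Itgax, Clec7a, Cd68, Cd9, Cd52 and Igf1 passed in each of the 4, Lgals3bp only on STD, and Axl, Cd63 and Csf1 in none. In the same order, the groups did not overlap in 7 (1.14% of all genes), 6 (0.61%), 8 (2.82%) and 3 (0.528%) of the 10. Of the non-overlapping genes, Axl in A+T+/STD mice did not pass the test. The comparisons on a diet share their AwTw mice. With only 1 of the 5 A+Tw/STD mice in batch 0, 2 genes passed there in batch 0 alone, and 6 in batch 1 alone.

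Adding Tau P301L to APPswe/PS1dE9 did not move any of the 10 genes past the threshold. Between A+T+ and A+Tw mice, 0 passed on STD, where 0.00629% of all genes did, and 0 on TWD (0% of all genes). At an unadjusted p under 0.05 there were 0 of the 10 in limma on either diet, with 617 and 208 of all genes. The point estimates were negative for Itgax (-0.20 on STD and -0.22 on TWD) and Clec7a (-0.08 and -0.17). For Itgax, the 95% confidence interval was -0.64 to 0.24 on STD and -0.60 to 0.15 on TWD, and so does not reach 1 in either direction. Between AwT+ and AwTw mice, 0 of the 10 passed on STD or TWD (0% and 0% of all genes). At an unadjusted p under 0.05, Igf1 was lower on STD (-0.29, 95% confidence interval -0.58 to -0.0034) and no gene differed on TWD, with 380 and 484 of all genes past that limit. All other estimates of the 10 genes in AwT+ mice lay between -0.24 and 0.30 (log2).

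The diets were compared over all genotypes and then by genotype. Over all genotypes, 3 of the 10 were higher in the 24 TWD than in the 21 STD mice, in a comparison in which 29.4% of all genes differed in either direction: Lgals3bp by 0.43 ± 0.14 (adjusted p = 0.0251), Cd52 by 0.26 ± 0.08 (adjusted p = 0.0172) and Cd68 by 0.25 ± 0.08 (adjusted p = 0.0252). That is close to the share of all genes, of which 2546 of 15897 were higher and 2132 lower, while 0 of the 10 were lower. None of the 3 passed within batch 0, where the differences were 0.11, 0.17 and 0.18, and within batch 1 they were 0.69, 0.32 and 0.35. With the score of the first principal component as a covariate, 0 of the 10 passed (Lgals3bp 0.21, Cd52 0.19, Cd68 0.07). That score keeps differences between groups, so it can take up part of a diet difference. Lgals3bp did not pass without AwTw/TWD replicate 3 (adjusted p = 0.0506). The estimate for Clec7a was -0.22 ± 0.12 (adjusted p = 0.128), and it passed without AwT+/TWD replicate 4 (-0.28, adjusted p = 0.0401). Within batch 0 it was -0.02 and within batch 1 -0.43 (adjusted p = 0.0452). Itgax was at -0.01 ± 0.09, with a 95% confidence interval of -0.20 to 0.18.

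By genotype, 0 of the 10 genes passed for diet in AwTw mice, where 9.35% of all genes did, and 0 in each of the 3 transgenic genotypes (0% of all genes in AwT+ mice, 0% in A+Tw mice and 0% in A+T+ mice). In AwTw mice, Cd68 (0.44 ± 0.16, adjusted p = 0.0571), Cd52 (0.39 ± 0.15, adjusted p = 0.0608) and Lgals3bp (0.71 ± 0.28, adjusted p = 0.0639) were under an unadjusted p of 0.05 in limma, as were 6391 of all genes. Here 1 to 3 of them passed without AwTw/STD replicate 2 (3 genes) or 6 (1), or AwTw/TWD replicate 4 (2) or 5 (3). In the other genotypes no gene of the 10 was under that limit, with 1183 (AwT+), 705 (A+Tw) and 409 (A+T+) of all genes. For Lgals3bp the estimates were 0.36 (AwT+), 0.46 (A+Tw) and 0.15 (A+T+). For Clec7a they were -0.33 in wild-type and -0.03 in AwT+ mice, and -0.24 (A+Tw) and -0.32 (A+T+) in A+ mice.

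**Figure D3:**
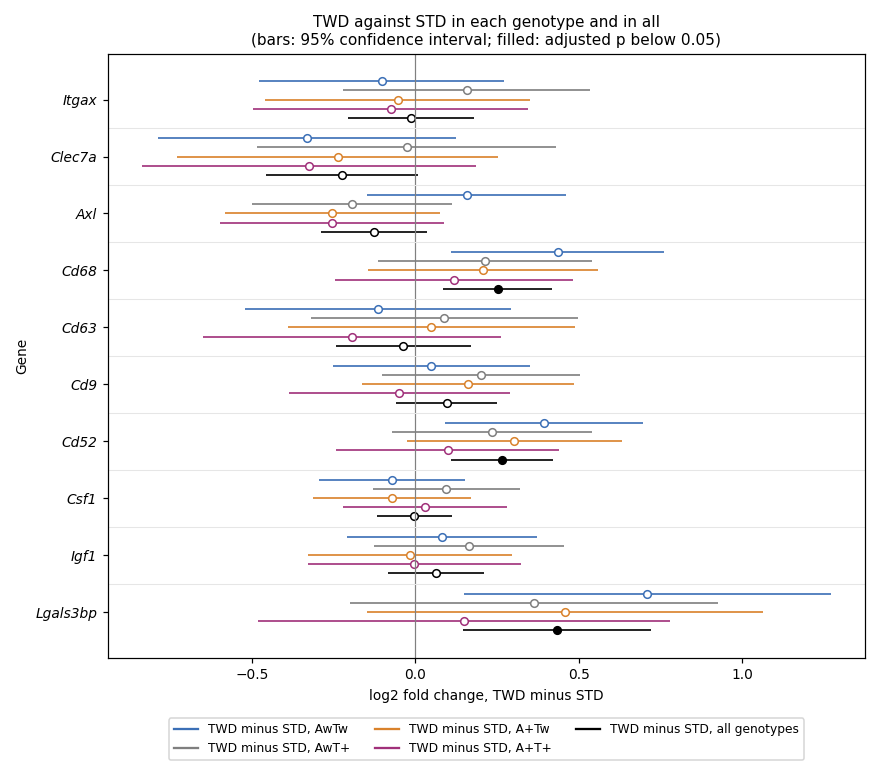
Log2 fold change of TWD against STD mice (x axis) for each gene (y axis), by genotype and over all genotypes, with 95% confidence intervals; filled points passed the test. The filled points are Cd68 at 0.25, Cd52 at 0.26 and Lgals3bp at 0.43 over all genotypes, and the intervals of Itgax, Cd9, Cd63, Csf1 and Igf1 include 0 in every row.

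Whether the diet altered the genotype difference was tested by interaction terms against AwTw mice. For A+Tw and for A+T+ mice, 0 of the 10 genes passed (0% and 0% of all genes), and 0 of the 10 were under an unadjusted p of 0.05 in limma, with 352 and 1001 of all genes. Axl had the lowest p of the 10: its genotype difference on TWD minus that on STD was -0.41 ± 0.22 for A+Tw (unadjusted p = 0.0725, adjusted p = 0.919) and, for A+T+ mice, of the same size (-0.41 ± 0.23, unadjusted p = 0.077, adjusted p = 0.56). For Itgax the interaction was 0.05 ± 0.27 for A+Tw mice and 0.03 ± 0.28 for A+T+ mice, with 95% confidence intervals of -0.50 to 0.60 and -0.54 to 0.59. For Clec7a the intervals were -0.58 to 0.76 and -0.68 to 0.69.

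Mice of the same group differed in some of these genes together. These correlations were added after the data were seen. Of the 45 pairs of genes, 14 were correlated over the 45 mice after group and batch were removed, with an adjusted permutation p under 0.05 (8 positive, 6 negative). Cd9, Cd63 and Lgals3bp went together: Pearson's r was 0.90 for Cd9 and Cd63 (Spearman's rho 0.87), 0.83 for Cd9 and Lgals3bp (rho 0.83) and 0.79 for Cd63 and Lgals3bp (rho 0.80). For these pairs the permutation p of r and rho was 1e-05, the smallest that 100000 permutations within groups can give, with an adjusted p of 0.00015. Without the 2 mice farthest from the median r was 0.88, 0.82 and 0.80, and within batches it was between 0.71 and 0.91. In the set of 17 mice with low choroid plexus markers the r of these pairs was 0.82 (adjusted permutation p = 0.0472), 0.78 (adjusted permutation p = 0.0325) and 0.54 (adjusted permutation p = 0.398), the last falling to 0.19 without 2 mice. In the 28 with high markers it was 0.84 (adjusted permutation p = 0.00156), 0.71 (adjusted permutation p = 0.0322) and 0.74 (adjusted permutation p = 0.0322). Both sets used residuals of the fit to all 45 mice, so r can hold differences between groups within a set.

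Cd52 was correlated with the same 3 genes, with r of 0.51 for Cd9 (rho = 0.44, adjusted permutation p = 0.0147), 0.45 for Cd63 (rho = 0.37, adjusted permutation p = 0.0318) and 0.54 for Lgals3bp (rho = 0.52, adjusted permutation p = 0.00525). Within batch 0 these were 0.73, 0.70 and 0.68, and within batch 1 they were 0.23, 0.16 and 0.40. Without the 2 farthest mice they were 0.36, 0.32 and 0.57. Axl went against Cd9 (r = -0.52, rho = -0.48, adjusted permutation p = 0.00525) and Cd63 (r = -0.42, rho = -0.41, adjusted permutation p = 0.0401), at -0.44 and -0.34 without the 2 farthest mice. Csf1 went against Cd9 (r = -0.59, rho = -0.60, adjusted permutation p = 0.00525) and Cd63 (r = -0.54, rho = -0.55, adjusted permutation p = 0.00945). Clec7a went against Cd68 (r = -0.51, rho = -0.48, adjusted permutation p = 0.00945) and Csf1 (r = -0.48, rho = -0.44, adjusted permutation p = 0.0191), although all of them were higher in A+ mice. Cd68 rose with Itgax (r = 0.41, rho = 0.43) and Cd52 (r = 0.41, rho = 0.36), each with an adjusted permutation p of 0.0318. Without the 2 farthest mice the 6 values of Csf1, Clec7a and Cd68 were -0.59, -0.50, -0.60, -0.53, 0.34 and 0.33. Within each batch these and those of Axl kept their sign. Clec7a and Cd68 also had opposite relations with the score of the first principal component, given above, and its part in their correlation was not tested.

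**Figure D4:**
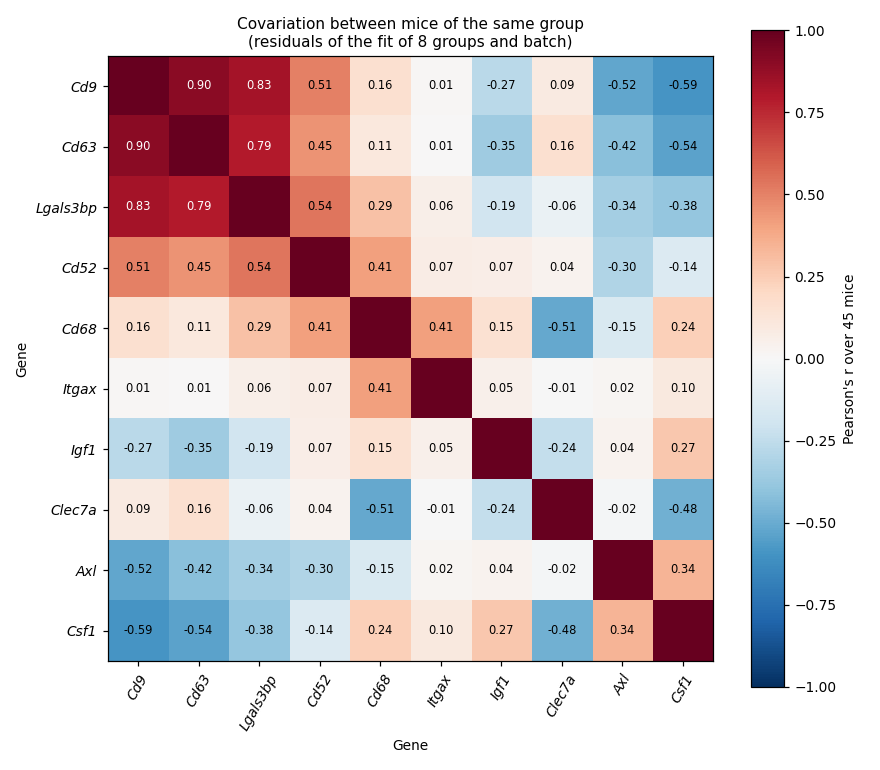
Pearson's r between each pair of the 10 genes (both axes) over 45 mice after removal of group and batch, coloured from -1 in blue to 1 in red. Cd9, Cd63 and Lgals3bp form a block at 0.79 to 0.90, and Itgax exceeds 0.10 only with Cd68, at 0.41.

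Over all 45 mice, after removal of group and batch, r with the choroid plexus score was 0.82 for Cd63, 0.77 for Cd9 and 0.71 for Lgals3bp. Their adjusted permutation p were 0.00015, 0.00015 and 0.0002. For Csf1 r was -0.49 (adjusted permutation p = 0.0184), for Clec7a 0.085 (0.687) and for Igf1 -0.24 (0.285), adjusted over 30 relations. No other gene passed. In the mice with high markers alone, Cd63, Cd9 and Clec7a went up with them and Csf1 and Igf1 went down. Since the mice fall into separate sets, the relation, chosen after seeing the data, was also computed within each. Group and batch were removed over all 45 mice and not again within a set. The r can thus hold differences between groups there, while permutations were within groups. In the 28 mice with high markers, r with the choroid plexus score was 0.83 for Cd63 (rho = 0.82, adjusted permutation p = 0.00156) and 0.73 for Cd9 (rho = 0.68, adjusted permutation p = 0.00949). For Lgals3bp it was 0.62 there (rho = 0.61, adjusted permutation p = 0.28), and for Csf1 -0.58 (rho = -0.54, adjusted permutation p = 0.00355). Clec7a (r = 0.38) and Igf1 (r = -0.42, and -0.25 without the 2 farthest mice) had an adjusted permutation p of 0.0472 each. Without the 2 farthest mice the first 4 values were 0.79, 0.67, 0.63 and -0.54. In the 17 mice with low markers, r was between -0.19 and 0.18 for all 10 genes, with adjusted permutation p from 0.515 to 0.761. The p within the sets were adjusted over 26 relations, the 6 of the pairs above included. With the score as a covariate, 10 of the 10 genes passed between A+ and Aw mice.

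**Figure D5:**
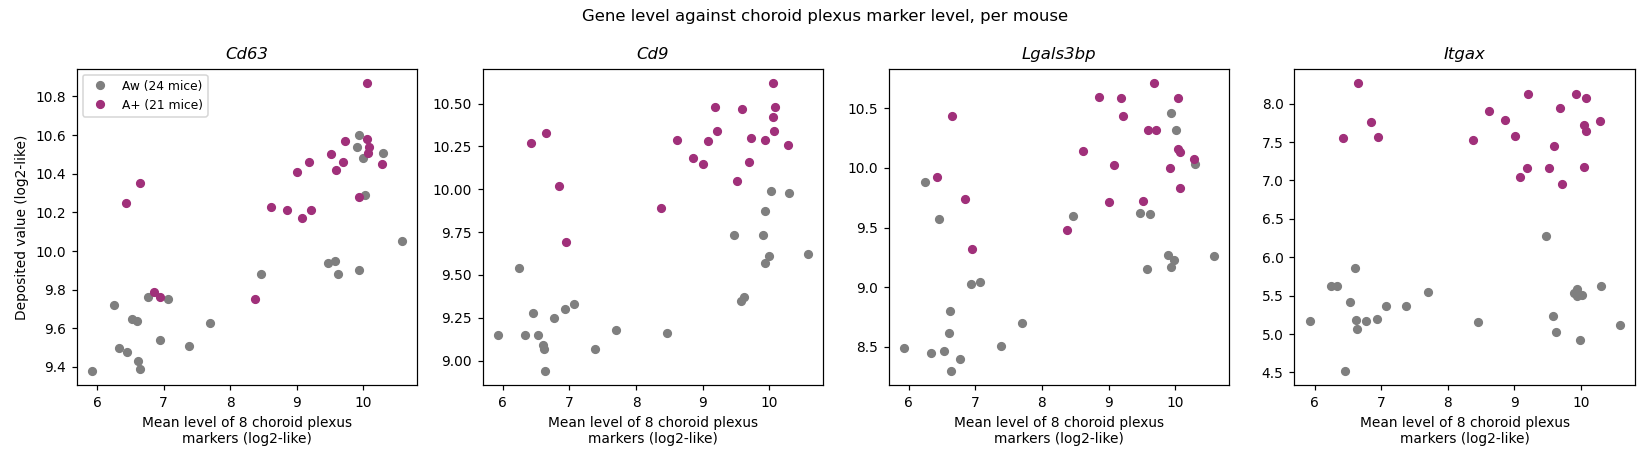
Deposited value of Cd63, Cd9, Lgals3bp and Itgax (y axis, log2-like) against the mean level of 8 choroid plexus markers (x axis, log2-like) in each of the 24 Aw and 21 A+ mice. Cd63 climbs with the markers in both genotypes, whereas A+ and Aw mice stay apart in Itgax over the whole range of marker levels.

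Against the score of 11 homeostatic microglia markers, Cd68 (r = 0.40, rho = 0.47, adjusted permutation p = 0.0221) and Axl (r = 0.46, rho = 0.43, adjusted permutation p = 0.0293) rose within groups, and the other 8 genes did not pass. Against the score of 9 oligodendrocyte markers, Cd9 (r = 0.59, rho = 0.45, adjusted permutation p = 0.0088), Cd63 (r = 0.49, rho = 0.39), Cd52 (r = 0.49, rho = 0.39) and Lgals3bp (r = 0.46, rho = 0.39) rose, the latter 3 with an adjusted permutation p of 0.0221. These were 20 relations over 45 mice. Within batches, r was 0.44 and 0.37 for Cd68, 0.57 and 0.28 for Axl, 0.63 and 0.54 for Cd9, and 0.67 and 0.20 for Cd52 (batch 0 and 1). Without the 2 farthest mice it was 0.42 for Cd68, 0.34 for Axl, 0.45 for Cd9 and 0.30 for Cd52.

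The gene most like each of the 10 in its residuals over the 45 mice was Bst2, an interferon-induced surface protein, for Lgals3bp (r = 0.91), and Gm19935 for both Cd63 (0.91) and Cd9 (0.89). For Clec7a it was Plaa (0.88), for Cd68 Gpr37l1 (0.85), for Axl Robo1 (0.82), for Cd52 Mrpl30 (0.70) and for Csf1 Ak4 (0.69). Itgax (Gm45169, 0.53) and Igf1 (Gm45552, 0.52) had no close match. Of these genes only Bst2 was higher in A+ mice (0.55, adjusted p = 0.0178).

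Of the 26 partner genes of these proteins, 11 were higher and 0 lower in A+ mice, with a median log2 fold change of 0.28: Itgb2, Cd37, Lgals3, Csf1r, Itgam, Cd53, Lgals9, Pros1, Plcg2, Syk and Lamp1. Of 22 other genes of plaque-associated microglia, 16 were higher (median 0.67), with the largest log2 fold changes for Cst7 at 4.13, Trem2 at 1.82, Tyrobp at 1.72, Ccl3 at 1.69 and Ccl6 at 1.59. All 9 pan-microglia markers were higher, among them C1qa at 1.19 and Laptm5 at 1.04, and so were 6 of 11 homeostatic markers, among them Fcrls (1.00) and Olfml3 (0.73). The homeostatic receptor P2ry12 was at 0.06 (adjusted p = 0.848). Itgax, Clec7a, Cd68 and Cd52 thus had larger log2 fold changes than any of the pan-microglia or homeostatic markers. Igf1 (0.99), Lgals3bp (0.95), Cd9 (0.88), Cd63 (0.50), Csf1 (0.32) and Axl (0.26) were all below C1qa, Laptm5 and Fcrls.

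Of the markers of other cells in the same mice, few passed the test. Of 8 astrocyte markers Gfap alone passed (1.44), of 9 oligodendrocyte markers Cldn11 alone (0.31), and 0 of 5 for border macrophages, 5 for oligodendrocyte precursors, 7 for endothelium, 5 for mural cells and 8 for neurons. For diet over all genotypes, 3 partner genes were higher (Lgals9 0.26, Cd81 0.21, Syk 0.18) and Lamp2 was lower (-0.39), in a comparison in which 29.4% of all genes differed. Most lists moved both ways. Of the 9 pan-microglia markers 5 were higher and 0 lower, of the 11 homeostatic markers 4 were higher and 2 lower (P2ry12 -0.36), and of the 22 other plaque-associated genes 4 and 2. Of the 8 astrocyte markers 2 were higher and 3 lower (Slc1a2 -0.49), of the 9 oligodendrocyte markers 4 and 1, and of the 8 neuronal markers 2 and 3 (Gad2 -0.62).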

How the data were processed

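RNA of the hippocampus of 45 mice was sequenced as single reads (TruSeq Stranded mRNA, Illumina HiSeq). The authors trimmed reads with Trimmomatic 0.38 after FastQC 0.11.8, removed ribosomal and mitochondrial reads with Bowtie2 2.2.3, quantified transcripts with kallisto 0.44.0, summed them to genes and removed genes with few reads. The authors then deposited variance-stabilized log2 values (DESeq2 1.22.2), from which they had removed the effect of batch with limma 3.38.3. The batch means of all 15897 genes are therefore equal, and the counts behind the values, and so the depth of each mouse, are unknown. The groups are spread unevenly over the batches: A+Tw/STD has 1 mouse in batch 0 and 4 in batch 1, and A+T+/TWD 4 and 2. With equal batch means, a gene that differs between groups can thus be shifted between batches within a group. The limma fits include batch, but the values, ranges and overlaps of single mice are as deposited. The tool versions are those of the submitters' processing notes. Of the genes, 15695 have a symbol, and 157 repeat another gene exactly.

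The 10 genes were matched by symbol, and the test was limma 3.58.1 (R 4.3.3) on the values as deposited, with the 8 groups and the batch (20 mice in batch 0, 25 in batch 1) in 1 fit, a mean trend, two-sided p and Benjamini-Hochberg adjustment over all genes. Diet over all genotypes came from a fit of genotype, diet and batch. Correlations were computed on the residuals of groups and batch, with 100000 two-sided permutations within groups (numpy 2.4.6, scipy 1.17.1), and p adjusted over each family of relations. Scores of a list are means over its markers, each first scaled to the same mean and spread. For correlations the markers' residuals were scaled, and for the choroid plexus covariate their values. The scripts were tested on simulated data. Genes named in the text are the 10, the members of lists and the gene most like each. The genes and lists were chosen with earlier results of these data known. As alternatives the batch covariate was left out, each batch was fitted by itself, or only the groups compared were used. Others were the score of the first principal component as a covariate, quantile normalization, no mean trend, a filter on low values, copied genes counted once, leaving out each mouse and, chosen after seeing the data, a choroid plexus score as a covariate. That component was found in the residuals of groups and batch. Its score was computed from the deposited values, which keep the group differences.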

Additional observations from a re-analysis of the deposited data

Results flagged for a closer look

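In 4 of the 80 combinations of gene and group tested, 1 mouse lay far from the others of its group by Dixon's criterion, and chance gives 1 in 20, or 4. Clec7a was 4.35 in AwTw/STD replicate 6, with the next mouse at 5.30. Cd63 was 9.79 in A+Tw/TWD replicate 1, with the next at 10.21. Cd52 was 6.92 in A+Tw/STD replicate 4, the only mouse of its group in batch 0, with the next at 7.43. Igf1 was 6.28 in AwT+/TWD replicate 3, with the next at 5.90. The mice flagged in Clec7a, Cd63 and Cd52 were in batch 0, and that in Igf1 in batch 1. The deposited values can hold a shift between batches within a group, as given above.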

How the results depend on the processing

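Of 160 values (10 genes in 16 comparisons), 38 passed the test, and 0 of them changed sign under any of the alternatives run. Of the 122 others, 78 did. Within batch 0 alone, 2 of the 10 genes passed for A+Tw against AwTw mice on STD, and 3 for A+T+ mice with either diet, while 0 passed for diet over all genotypes. Within batch 1 alone, 3 passed in A+T+/TWD mice and 2 for diet in AwTw mice. These fits hold fewer mice. With genes above the 25th percentile of mean level, which leaves 7 of the 10 in the test, 3 passed for A+Tw mice with either diet, 4 for A+T+ mice on STD and 3 for A+T+ mice on TWD, and 1 for diet in AwTw mice. This filter leaves out Itgax, Clec7a and Igf1, the lowest of the 10 in mean level. Each of them had passed in these A+ comparisons in the main fit. With the score of the first principal component as a covariate, which keeps group differences, 0 passed for diet over all genotypes. With the choroid plexus score 1 passed for diet in AwTw mice. Leaving out a mouse gave 0 to 3 genes for diet in AwTw mice. The share of all genes that passed under each alternative is not given, here or above, so these counts cannot be set against it. The causes were not tested.

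Among the comparisons of A+ with Aw mice and of diet over all genotypes, the values that did not pass and changed sign were Cd63 in A+Tw/STD (-0.21 in batch 0), and Axl in A+Tw/TWD (-0.40 in batch 0, -0.0543 with only the groups compared, -0.0597 to 0.14 without 1 mouse) and in A+T+/TWD mice (-0.38 in batch 0). For diet over all genotypes, they were Itgax (0.0187 in batch 1, 0.0496 after quantile normalization, -0.0547 to 0.0356 without 1 mouse), Clec7a (0.033 with the principal component), Cd9 (-0.0456 in batch 0), Cd63 (0.0637 in batch 1, 0.0747 with the choroid plexus score, -0.0779 to 0.0081 without 1 mouse), Csf1 (0.0839 in batch 0, 0.0105 after quantile normalization, -0.0214 to 0.0159 without 1 mouse) and Igf1 (-0.0501 in batch 0). No paired analysis was run, as each sample was a separate animal. The labels give the mice no replicate numbers, and those used here only name mice, in the order of the samples. Depth is unknown, so a small difference in a gene with few reads may not have been detectable.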
